A study of Mus musculus with 17 samples.

Results

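Fos, Fosb, Fosl2, Jun, Junb, Jund, Atf3, Egr1, Dusp1 and Ier3 are the AP-1 and immediate early genes described here across mouse myeloid progenitors and mature spleen cells. Every probe set that the platform annotation gives to exactly 1 of these 10 symbols was taken, whatever its values. The choice gave 13 probe sets, of 45037 on the array and 17097 genes with a probe set of their own. Fosl2, Jun and Jund have 2 probe sets each, and the other 7 genes have 1.

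The data are 17 Affymetrix perfect-match arrays of cells sorted by flow cytometry from mice of 6 to 10 weeks. Myelo-dendritic progenitors (MDPs), the bone marrow precursors of macrophages and dendritic cells, were sorted without lineage markers, Sca1 and CD127 and with CD117 and the M-CSF receptor. MDPs without VENUS reporter expression (2 pools) and MDPs of reporter mice with VENUS expression (3 pools) both carry the genotype label IRF8-deficient. Neither the labels nor the design text say whether that names the reporter allele, which promoter drives the reporter or how many mice a pool held. MDPs labelled as IRF8 knockout came as 3 pools, and wild-type MDPs as 3 pools. From the spleen of wild-type mice came 3 pools of macrophages (CD11c-, CD11b+, M-CSF receptor+) and 3 pools of granulocytes (CD11c-, CD11b+, Ly6C+, M-CSF receptor-). Each of these knockout-labelled, wild-type and spleen pools held cells of 5 mice. The study asked which genes differ between IRF8-deficient and wild-type MDPs and to which mature cell type those genes belong.

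AP-1 is a family of DNA-binding dimers of FOS, JUN and ATF proteins, which pair through a leucine zipper and bind sites such as TGACTCA or TGACGTCA. Fos, Fosb, Jun, Junb, Atf3, Egr1, Dusp1 and Ier3 are immediate early genes: growth factors, cytokines and cell stress switch them on quickly, without new protein synthesis, largely through MAP kinases that act on factors already bound at their promoters. In myeloid cells AP-1 takes part in differentiation and in inflammatory gene expression, and the handling of a tissue is known to raise several of these transcripts. The sources used here give no times between killing, staining and sorting, and the part of handling in the results was not tested.

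The promoters of 4 members that carry a recognition element are printed because the genes they serve move between the groups described below. That of Fosl2 is printed because its brighter probe set, though not its dimmer one, gives the clearest differences among progenitors. All these promoters are printed in the same way. They run from 250 bases before the start of transcription to the start, 5′ to 3′ along the gene, from RefSeq promoters of the mouse build GRCm38.p6, which hold 9 of the 10 members. Capitals mark TGACGT, the core of the cyclic-AMP response element, on either strand, its palindrome TGACGTCA, and in Jun the element TGACATCA.
Fos (chr12:85473640-85473889, plus strand): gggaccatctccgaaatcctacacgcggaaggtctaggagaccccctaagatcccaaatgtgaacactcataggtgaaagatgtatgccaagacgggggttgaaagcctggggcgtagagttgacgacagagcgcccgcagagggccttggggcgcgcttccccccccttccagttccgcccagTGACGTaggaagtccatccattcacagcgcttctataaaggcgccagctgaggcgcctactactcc
Jun (chr4:95052223-95052472, minus strand): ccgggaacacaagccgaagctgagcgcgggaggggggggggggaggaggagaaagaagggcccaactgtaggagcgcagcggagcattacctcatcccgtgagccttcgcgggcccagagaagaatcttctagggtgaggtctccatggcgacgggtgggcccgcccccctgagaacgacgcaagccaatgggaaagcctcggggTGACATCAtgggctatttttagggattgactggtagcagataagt
Atf3 (chr1:191183334-191183583, minus strand): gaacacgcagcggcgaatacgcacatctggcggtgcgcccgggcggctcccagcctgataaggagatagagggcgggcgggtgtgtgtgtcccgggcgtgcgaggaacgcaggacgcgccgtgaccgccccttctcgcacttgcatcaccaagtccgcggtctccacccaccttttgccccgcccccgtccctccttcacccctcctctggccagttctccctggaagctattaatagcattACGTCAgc
Dusp1 (chr17:26508473-26508722, minus strand): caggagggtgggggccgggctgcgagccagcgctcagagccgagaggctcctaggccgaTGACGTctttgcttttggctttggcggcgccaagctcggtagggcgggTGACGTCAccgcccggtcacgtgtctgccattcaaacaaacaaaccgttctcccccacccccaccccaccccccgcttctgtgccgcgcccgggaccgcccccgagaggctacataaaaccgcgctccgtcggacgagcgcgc
Fosl2 (chr5:32136222-32136471, plus strand): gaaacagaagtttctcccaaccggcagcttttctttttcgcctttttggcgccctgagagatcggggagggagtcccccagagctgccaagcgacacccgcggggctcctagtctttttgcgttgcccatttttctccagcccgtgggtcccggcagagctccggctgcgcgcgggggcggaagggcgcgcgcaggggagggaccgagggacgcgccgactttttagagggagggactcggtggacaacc

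Fos holds TGACGT 66 bases before its start, Atf3 holds it 8 bases before its start on the opposite strand, and Dusp1 holds it 191 bases before its start and again within a TGACGTCA that begins 143 bases before it. In the whole windows, which also take in 50 bases after the start, both strands were searched and the longer element contains the shorter. TGACGT was in 3 of the 9 member promoters, against 7.51% of all 32851 promoters, and TGACGTCA in 1 of 9, against 1.79%. TGACATCA was in 1 of 9, in Jun, 45 bases before the start, against 3.62% of all promoters. TGACTCA was in 0 of the 9 windows and in 5.2% of all promoters, and the CArG box, the site of serum response factor, was in 0 of 9 and in 1.63%. These matches describe letters in a short window and nothing of what is bound there.

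The deposited values are log2 expression values. They ran from 1.69 to 13.5, with array medians of 4.33 to 4.48 and lower quartiles of 3.18 to 3.42. Irf8 read 10.32, 10.42 and 10.18 in knockout-labelled pools, against 10.27, 10.56 and 10.19 in wild-type MDPs, and since the labels do not place its probe set relative to the deleted part, it does not check the label. In VENUS-negative pools Irf8 read 5.49 and 6.25, against 10.72 to 11.10 in VENUS-positive pools. Csf1r, which encodes the M-CSF receptor of the MDP gate, was also low in VENUS-negative pools, at 5.09 and 4.83 against 7.63 to 8.05 in VENUS-positive pools. In granulocytes, sorted without that receptor, Csf1r read 7.16 to 8.56. Markers of mature cells set wild-type MDP pool 3 apart from pools 1 and 2, with S100a8, a neutrophil gene, at 11.87 against 6.22 and 3.62, so the members' printed differences against wild-type MDPs are also given without it. Comparisons against wild-type MDPs share these 3 arrays. The mature cells are all from spleen and the MDPs are bone marrow precursors, so organ and cell type cannot be told apart between them. In pools of sorted cells, fewer cells of a type and less RNA per cell cannot be told apart.

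**Figure D1:**
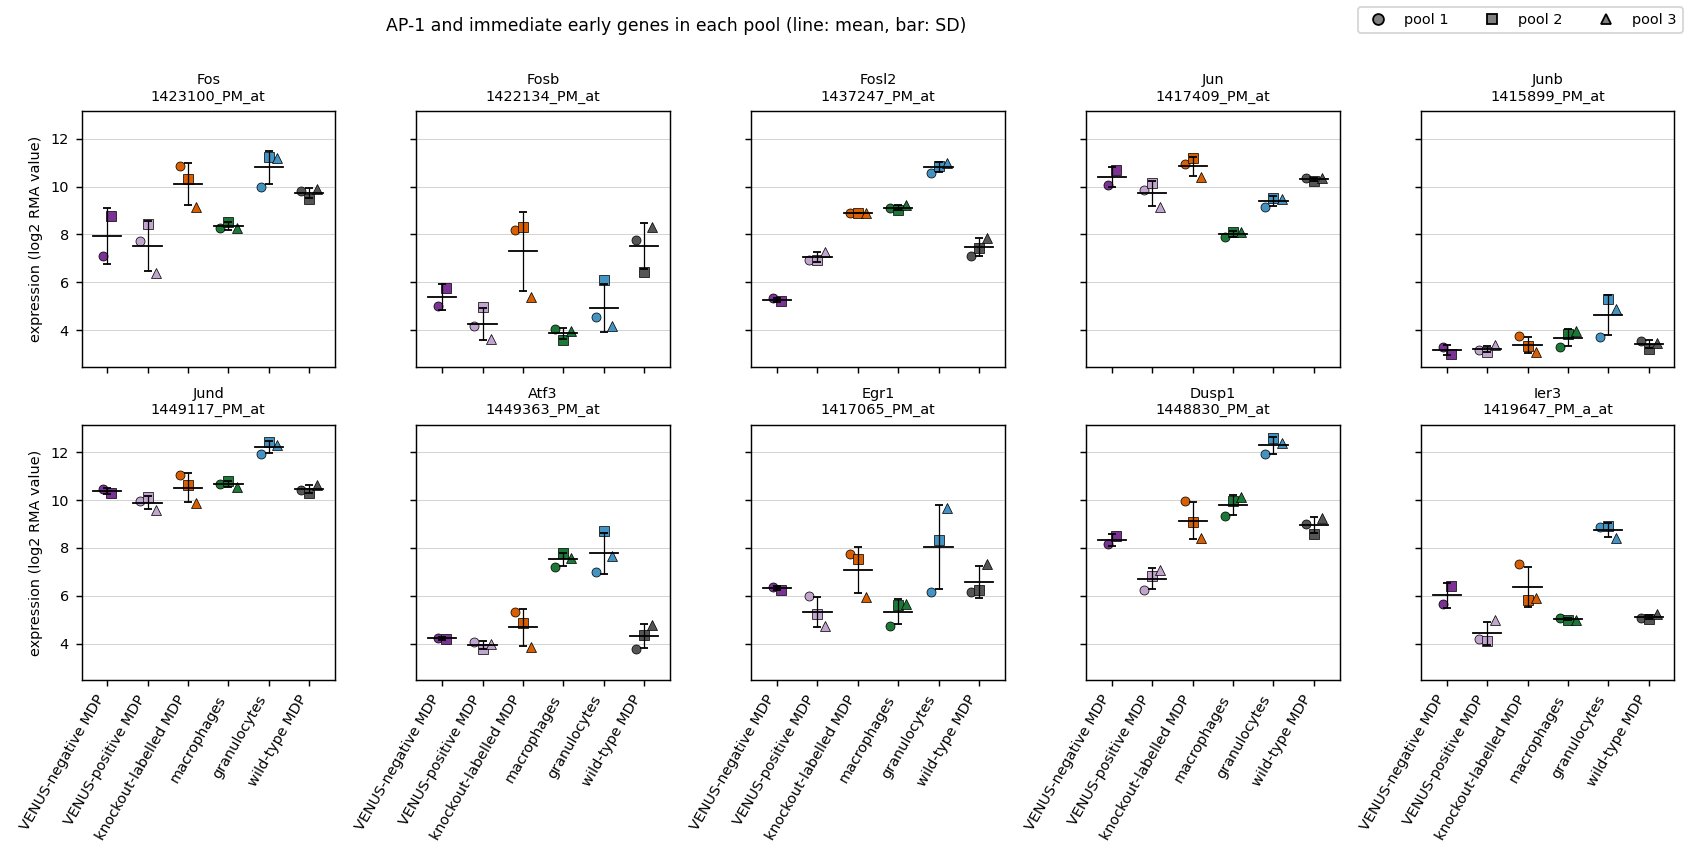
Log2 RMA value (vertical axis) of the highest-mean probe set of each of the 10 genes in every pool, by group, with the group mean as a bar and the SD between pools as whiskers (n = 2 VENUS-negative pools, n = 3 in other groups). Granulocytes hold the highest mean of 8 of the 10 genes, Fosb is highest in wild-type MDPs and Jun in knockout-labelled MDPs, and Junb lies mostly under the array medians of 4.33 to 4.48.

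Fos encodes an AP-1 subunit that binds DNA paired with JUN proteins and does not pair with itself. Fos read 7.11 and 8.76 in VENUS-negative MDPs and 7.71, 8.44 and 6.40 in VENUS-positive MDPs. It read 10.87, 10.33 and 9.14 in knockout-labelled MDPs, 8.25, 8.53 and 8.25 in macrophages, 9.99, 11.24 and 11.18 in granulocytes and 9.83, 9.49 and 9.89 in wild-type MDPs. Granulocyte and knockout-labelled pools were high and overlapped, and both VENUS groups lay below every wild-type pool. By mean level, granulocytes (10.80), knockout-labelled (10.11), wild-type MDPs (9.74), macrophages (8.35), VENUS-negative (7.93) and VENUS-positive MDPs (7.52), the only neighbours whose pools did not overlap were wild-type MDPs and macrophages.

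Fosb, whose protein also pairs with JUN proteins, had another order. It read 5.02 and 5.77 in VENUS-negative MDPs, 4.16, 4.98 and 3.64 in VENUS-positive MDPs, and 8.18, 8.32 and 5.40 in knockout-labelled MDPs. Macrophages had 4.04, 3.60 and 3.97, granulocytes 4.53, 6.08 and 4.16, and wild-type MDPs 7.76, 6.45 and 8.33. Fosb was thus high in wild-type MDPs and in knockout-labelled pools 1 and 2, and under the array median on 6 of the 17 arrays, while every pair of neighbours in the order of its means overlapped.

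Fosl2 encodes FRA-2, a FOS-related protein without the strong activation domain of FOS. Its brighter probe set, 1437247_PM_at, read 5.33 and 5.20 in VENUS-negative MDPs and 6.95, 6.94 and 7.29 in VENUS-positive MDPs. Knockout-labelled MDPs had 8.89, 8.88 and 8.90, macrophages 9.09, 9.02 and 9.23, granulocytes 10.58, 10.88 and 10.98, and wild-type MDPs 7.11, 7.45 and 7.85. These groups were almost fully separated: in the order granulocytes, macrophages, knockout-labelled, wild-type, VENUS-positive and VENUS-negative MDPs, only wild-type and VENUS-positive pools overlapped. The dimmer probe set, 1422931_PM_at, read 4.83 and 4.85 in VENUS-negative MDPs, 4.82, 5.46 and 5.01 in VENUS-positive MDPs, and 6.34, 6.23 and 6.07 in knockout-labelled MDPs. It read 6.15, 6.65 and 6.74 in macrophages, 8.56, 9.24 and 8.23 in granulocytes and 6.08, 6.06 and 6.29 in wild-type MDPs. Both probe sets put granulocytes highest, but the dimmer one did not separate knockout-labelled from wild-type MDPs or the VENUS groups from each other.

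**Figure D2:**
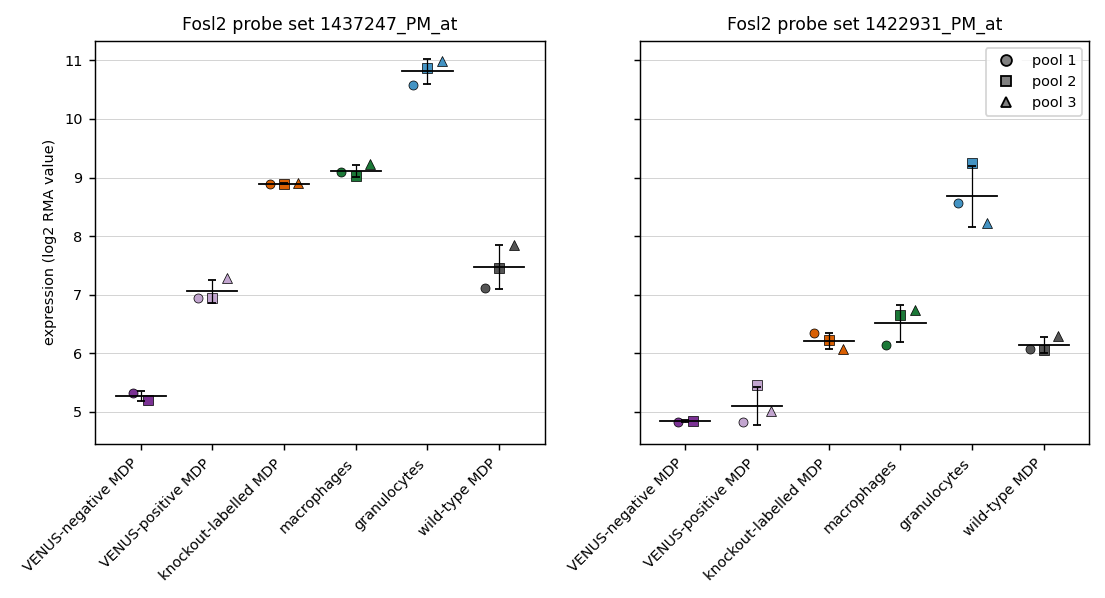
Log2 RMA value (vertical axis) of both Fosl2 probe sets in every pool, by group, with the mean as a bar and the SD between pools as whiskers (n = 2 VENUS-negative pools, n = 3 in other groups). In 1437247_PM_at the knockout-labelled pools lie between 8.88 and 8.90, above wild-type pools at 7.11 to 7.85, while in 1422931_PM_at they overlap wild-type pools.

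Jun encodes the central AP-1 subunit, which can pair with itself and with FOS and ATF proteins. Jun (1417409_PM_at) read 10.09 and 10.69 in VENUS-negative MDPs, 9.88, 10.15 and 9.15 in VENUS-positive MDPs, and 10.93, 11.20 and 10.42 in knockout-labelled MDPs. It read 7.87, 8.09 and 8.10 in macrophages, 9.15, 9.54 and 9.50 in granulocytes and 10.35, 10.22 and 10.35 in wild-type MDPs. On this probe set all wild-type, knockout-labelled and VENUS-negative pools lay above all spleen pools, and VENUS-positive pools overlapped granulocytes. The dimmer probe set 1448694_PM_at had the macrophages lowest among the wild-type groups too, at 7.01 to 7.04, with granulocytes at 8.09 to 8.46 and wild-type MDPs at 8.07 to 8.44, which overlapped, and both VENUS-negative pools (7.92 and 7.89) below the granulocytes. Jund, the most evenly expressed JUN member in many tissues, read 11.94, 12.41 and 12.28 in granulocytes and between 9.58 and 11.07 in all other pools (1449117_PM_at). Its second probe set, 1440265_PM_at, ran only from 4.61 to 5.92 and had no such granulocyte level. Junb, which can restrain JUN activity, was under the array median on 15 of 17 arrays and read 3.70, 5.30 and 4.88 in granulocytes, so its values lie near background.

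Atf3 encodes a stress-induced bZIP protein that often represses inflammatory genes. It read 4.25 and 4.18 in VENUS-negative MDPs, 4.08, 3.78 and 3.98 in VENUS-positive MDPs, and 5.34, 4.84 and 3.85 in knockout-labelled MDPs. Macrophages had 7.22, 7.77 and 7.58, granulocytes 6.99, 8.69 and 7.66, and wild-type MDPs 3.80, 4.35 and 4.78. Each of the 6 spleen pools lay above each of the 11 MDP pools in Atf3, and most of the MDP pools were near or under the array median.

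Egr1 encodes a zinc-finger factor that MAP kinase signalling induces through serum response factor. It read 6.38 and 6.26 in VENUS-negative MDPs, 5.99, 5.24 and 4.76 in VENUS-positive MDPs, and 7.73, 7.55 and 5.95 in knockout-labelled MDPs. Macrophages had 4.72, 5.63 and 5.67, granulocytes 6.14, 8.32 and 9.66, and wild-type MDPs 6.16, 6.24 and 7.33. The granulocyte pools differed among themselves by 3.51 log2 units, the widest range of any of these 10 genes in any group.

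Dusp1 encodes a phosphatase that switches off MAP kinases. It read 8.16 and 8.52 in VENUS-negative MDPs, 6.24, 6.83 and 7.09 in VENUS-positive MDPs, and 9.96, 9.07 and 8.40 in knockout-labelled MDPs. Macrophages had 9.34, 9.96 and 10.13, granulocytes 11.91, 12.61 and 12.38, and wild-type MDPs 9.02, 8.60 and 9.25. Granulocytes were separated above all other pools and VENUS-positive MDPs below all others.

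Ier3 encodes a small protein tied to cell survival under stress. It read 5.65 and 6.39 in VENUS-negative MDPs, 4.20, 4.12 and 4.99 in VENUS-positive MDPs, and 7.33, 5.83 and 5.93 in knockout-labelled MDPs. Macrophages had 5.07, 5.00 and 5.00, granulocytes 8.89, 8.93 and 8.41, and wild-type MDPs 5.07, 5.05 and 5.22. Granulocytes were again above every other pool, whereas macrophages and wild-type MDPs overlapped.

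Differences below are in log2 units, with the limma standard error, from a fit over all 17 arrays, and a probe set was called at a Benjamini-Hochberg adjusted p under 0.05 over all 45037 probe sets. The p-values weigh a difference against the spread between pools only.

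In knockout-labelled against wild-type MDPs, 1 of the 13 probe sets was called, where 0.575% of all probe sets were called. Fosl2 (1437247_PM_at) rose 2.68-fold, by 1.42 ± 0.17 (SE; adjusted p = 0.00112), and by 1.61 without wild-type pool 3. The other Fosl2 probe set differed by 0.07, with a 95% interval of -0.44 to 0.58 (adjusted p = 0.994), so the probe sets of this gene disagree. Without wild-type pool 3 it differed by 0.15. Ier3 had a difference of 1.25 ± 0.34 and its pools did not overlap (adjusted p = 0.181), and Jun differed by 0.55 with pools that did not overlap (adjusted p = 0.615). Pools did not overlap upwards in 3 of 13 probe sets, where 7.01% of all probe sets did so. Fos differed by 0.38 with an interval of -0.80 to 1.56, and Egr1 by 0.50 with an interval of -1.02 to 2.02. Without wild-type pool 3 the differences were 1.30 for Ier3, 0.57 for Jun, 0.45 for Fos and 0.88 for Egr1, none of them called. The median difference of the members was 0.23 and that of all probe sets 0.01. Of 8 erythroid and megakaryocyte marker genes 4 fell here, among them Hbb-b2, and their mean level per pool was 4.16 to 4.35 in knockout-labelled against 5.98 to 9.08 in wild-type MDPs. Of 7 neutrophil marker genes 1 rose and 0 fell. Their mean level was 7.29, 6.30 and 7.13 in knockout-labelled pools 1, 2 and 3, against 4.78, 4.31 and 9.05 in wild-type pools 1, 2 and 3. The part of either kind of cell in these values was not tested. With only these 6 arrays in the fit, the Fosl2 call was lost (adjusted p = 0.0931).

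In VENUS-negative against VENUS-positive MDPs, 3 of the 13 probe sets were called, where 4.44% of all probe sets were called. Dusp1 rose 3.08-fold, by 1.62 ± 0.40 (SE, limma adjusted p = 0.0316). Ier3 was called higher, by 1.59 ± 0.38 (limma adjusted p = 0.0297). No fold is given for Ier3 because its VENUS-positive mean of 4.43 is near the array medians. Fosl2 (1437247_PM_at) fell 3.46-fold, with a difference of -1.79 ± 0.19 (adjusted p = 6.83e-05). For the dimmer Fosl2 probe set the difference was -0.26, with an interval of -0.83 to 0.31 (adjusted p = 0.771). Fos itself differed by 0.41 with an interval of -0.91 to 1.74, Fosb by 1.13 (adjusted p = 0.605) and Egr1 by 0.99 (adjusted p = 0.668), none past the threshold. The median difference of the members was 0.49 and that of all probe sets -0.01. These groups also differed in markers of other lineages: 6 of 8 erythroid and megakaryocyte genes and 3 of 4 mast cell and basophil genes rose, and the mean level of the first list was 10.50 and 9.63 in VENUS-negative pools against 5.72 to 6.25 in VENUS-positive pools, that of the second 8.10 and 8.37 against 4.24 to 4.38. Monocyte and macrophage markers fell in 3 of 8 genes and rose in 0, at 4.51 and 4.44 in VENUS-negative pools against 5.87 to 5.95 in VENUS-positive pools. Dendritic cell markers fell in 2 of 5 and rose in 0, at 4.78 and 4.62 against 5.65 to 5.96. The part of all these kinds of cells in the member results was not tested. The Dusp1 call was lost in 4 of the 5 fits without 1 of these pools (adjusted p up to 0.194) and the Ier3 call in 3 of the 5 (up to 0.256): Dusp1 without either VENUS-negative pool or without VENUS-positive pool 1 or 2, and Ier3 without VENUS-negative pool 2 or VENUS-positive pool 1 or 2. The Fosl2 call held in 5 of the 5, with an adjusted p of at most 0.00143. The difference in 1437247_PM_at between the VENUS comparison and the knockout-labelled comparison was itself called, at -3.22 ± 0.26 (SE; adjusted p = 7.75e-06), 1 of the 13 probe sets where 2.35% of all probe sets were called; that contrast was added after the data were seen.

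In VENUS-positive against wild-type MDPs, 0 of the 13 probe sets and 0% of all probe sets were called by limma at the adjusted threshold, and 5.91% of all probe sets had an unadjusted p under 0.05. At that unadjusted threshold 8 of the 13 were lower and 0 higher, where 2.95% of all probe sets were lower. They were Fos, Fosb, both Fosl2, both Jun, Jund (1449117_PM_at) and Dusp1. Dusp1 differed by -2.24 ± 0.36 (SE; adjusted p = 0.150, interval -3.00 to -1.47), and by -2.09 without wild-type pool 3. Fos differed by -2.22 ± 0.55 (adjusted p = 0.514) and Fosb by -3.25 ± 0.72 (adjusted p = 0.403), and without wild-type pool 3 by -2.14 and -2.84. Pools did not overlap downwards in 8 of the 13, where 4.3% of all probe sets did so. These 8 hold Egr1 and Ier3 in place of Fosl2 1437247_PM_at and Jun 1448694_PM_at, whose pools overlapped. The median difference of the members was -0.68 and that of all probe sets 0.02. None of these differences passed the adjusted test, and 0 members were called in any alternative fit, although a fit with a trended, robust prior called 2 of all probe sets and fits without 1 pool called 0 to 9.

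In macrophages against granulocytes, 10 of the 13 probe sets were called lower and 0 higher, where 11.3% of all probe sets were called lower and 13.6% higher. Ier3 fell 13.1-fold (-3.72 ± 0.34, SE; adjusted p = 2.19e-06), Dusp1 5.61-fold (-2.49 ± 0.36; adjusted p = 1.23e-04) and Fos 5.49-fold (-2.46 ± 0.55; adjusted p = 0.00433). Both Fosl2 probe sets fell, with differences of -1.70 and -2.17, as did both Jun probe sets, with -1.38 and -1.22, and Jund (1449117_PM_at), with -1.53. The second Jund probe set, 1440265_PM_at, differed by -0.05 (adjusted p = 0.929). Egr1 fell 6.50-fold (adjusted p = 0.0119), a call that was lost without granulocyte pool 3 (adjusted p = 0.0575) or macrophage pool 1 (adjusted p = 0.0538). Junb was called lower (adjusted p = 0.0439) although its pools overlapped and macrophages, at 3.69, lay under the array medians, and that call was lost in 5 of 6 fits without 1 pool, those without granulocyte pool 2 or 3 or any macrophage pool (adjusted p up to 0.205); that of Jun 1448694_PM_at was lost in 6 of 6 (up to 0.111). Atf3 was not called, with a difference of -0.26 (adjusted p = 0.691), nor was Fosb, with -1.05 (adjusted p = 0.317). The median difference of the members was -1.53 and that of all probe sets -0.10. NK and T cell markers also fell in 5 of 7 genes here, with mean levels of 4.41 to 4.63 in macrophages against 6.31 to 6.88 in granulocytes. Dendritic cell markers rose in 3 of 5, at 8.40 to 8.60 in macrophages against 5.79 to 6.95 in granulocytes, and the part of either kind of cell was not tested.

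In granulocytes against wild-type MDPs, 9 of the 13 probe sets were called, 7 higher and 2 lower, where 38.4% of all probe sets were called, 20.4% higher and 17.9% lower. Ier3 rose 12.4-fold (3.63 ± 0.34, SE; adjusted p = 1.27e-06), Dusp1 10.2-fold (3.34 ± 0.36; adjusted p = 3.84e-06) and Fosl2 10.1-fold by 1437247_PM_at (3.34 ± 0.17; adjusted p = 4.13e-09). The dimmer Fosl2 probe set rose by 2.54 and Jund (1449117_PM_at) by 1.74, while the second Jund probe set, 1440265_PM_at, differed by 0.23 (adjusted p = 0.582). Atf3 averaged 7.78 in granulocytes and 4.31 in wild-type MDPs and was called higher (difference 3.47 ± 0.41; adjusted p = 9.83e-06), with no fold given because the wild-type level is at or under the array medians. Junb was called higher as well (adjusted p = 0.0077), at 4.63 in granulocytes against 3.41 in wild-type MDPs, close to background. Jun (1417409_PM_at) fell by 0.91 (adjusted p = 0.0107), but its dimmer probe set, 1448694_PM_at, differed by -0.046 (adjusted p = 0.941), so the Jun probe sets disagree. Fosb had a difference of -2.59 ± 0.72 (adjusted p = 0.0109), a call that was lost without wild-type pool 3 (-2.18, adjusted p = 0.0517). Fos (1.07, adjusted p = 0.143) and Egr1 (1.46, adjusted p = 0.120) were not called, but Egr1 was without granulocyte pool 1 (2.41, adjusted p = 0.00470), while without granulocyte pool 3 it differed by 0.66 (adjusted p = 0.484). The Junb call was lost with only these 6 arrays in the fit (adjusted p = 0.0563). NK and T cell markers rose in 4 of 7 genes here, with mean levels of 6.31 to 6.88 in granulocytes against 4.43 to 5.76 in wild-type MDPs. Dendritic cell markers rose in 3 of 5 genes and fell in 1, with mean levels of 5.79 to 6.95 in granulocytes against 4.83 to 6.06 in wild-type MDPs, and the part of such cells was not tested. Leaving out wild-type pool 3 gave differences of 3.68 for Ier3, 3.71 for Atf3, 3.49 for Dusp1 and 3.54 and 2.61 for the Fosl2 probe sets. It gave 1.84 for Jund 1449117_PM_at, 0.54 for Jund 1440265_PM_at, -0.89 for Jun 1417409_PM_at and 0.027 for Jun 1448694_PM_at. For Junb it gave 1.25, for Fos 1.14 and for Egr1 1.84.

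In macrophages against wild-type MDPs, 5 of the 13 probe sets were called, 2 higher and 3 lower, where 18.9% of all probe sets were called, 9.61% higher and 9.28% lower. Fosl2 (1437247_PM_at) rose 3.12-fold (1.64 ± 0.17, SE; adjusted p = 1.06e-05), while its dimmer probe set differed by 0.37 and was not called (adjusted p = 0.365). Atf3 averaged 7.52 in macrophages and 4.31 in wild-type MDPs and was called higher (difference 3.21 ± 0.41; adjusted p = 5.25e-05). Fosb fell by 3.64 ± 0.72 (adjusted p = 0.00207), to levels under the array median, and Jun fell 4.87-fold (-2.28 ± 0.25; adjusted p = 1.52e-05). Its dimmer probe set fell by 1.27 (adjusted p = 0.0385), a call lost in 6 of 6 fits without 1 pool (up to 0.107). Fos differed by -1.39 (adjusted p = 0.103) with pools that did not overlap, and Dusp1 by 0.86 (adjusted p = 0.122), and both were called with only these 6 arrays in the fit (adjusted p = 7.42e-04 and 0.0482). Without wild-type pool 3 the differences were 3.45 for Atf3, 1.83 and 0.45 for the Fosl2 probe sets, -3.23 for Fosb, -2.26 and -1.19 for the Jun probe sets, -1.31 for Fos and 1.00 for Dusp1. Atf3 was thus called higher in both spleen populations than in wild-type MDPs, and so was Fosl2 by 1437247_PM_at alone, while Ier3 differed by -0.09 in macrophages (adjusted p = 0.926; -0.032 without wild-type pool 3). Dendritic cell markers rose in 3 of 5 genes here, with mean levels of 8.40 to 8.60 in macrophages against 4.83 to 6.06 in wild-type MDPs, among them Itgax, which encodes the CD11c that the macrophage gate excludes. Erythroid and megakaryocyte markers fell in 5 of 8 genes, with mean levels of 4.77 to 5.05 in macrophages against 5.98 to 9.08 in wild-type MDPs. The part of such cells was not tested.

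**Figure D3:**
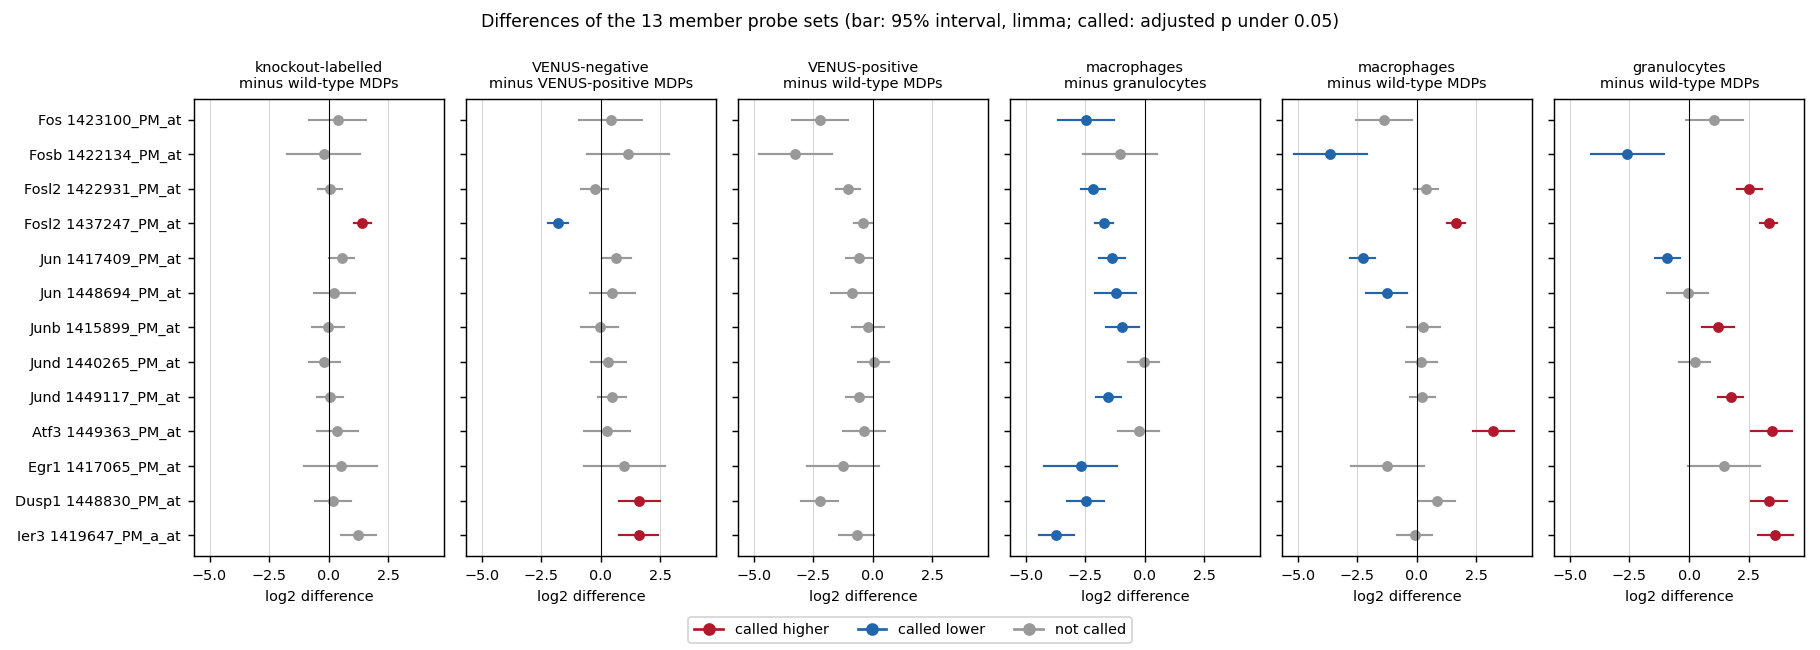
Log2 difference (horizontal axis) of each of the 13 probe sets in the 6 comparisons, with the 95% interval from limma as a bar, coloured by whether it was called at an adjusted p under 0.05. In macrophages minus granulocytes the 10 called differences lie below 0, while in knockout-labelled minus wild-type MDPs only Fosl2 1437247_PM_at was called.

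The order of the pools within a group was much the same over these genes in 3 groups and mixed in others. Among knockout-labelled MDPs, pool 3 was the lowest in 8 of the 10 genes (highest-mean probe set of each) and pool 1 the highest in 7, where these pools were the lowest and the highest in 30% and 33.4% of all 17097 genes. Pool ranges there were 1.74 in Fos, 1.78 in Egr1 and 2.92 in Fosb, against 0.02 in Fosl2. Granulocyte pool 1 was the lowest in 8 genes and pool 2 the highest in 8, against 38.6% and 35.8% of all genes, and wild-type MDP pool 3 was the highest in 9, against 40.1%. In VENUS-positive MDPs the order was mixed, with pool 3 the lowest in 5 genes and the highest in 4 and pool 2 the lowest in 4 and the highest in 4. Macrophage pools were the lowest in 5, 3 and 2 genes and the highest in 2, 3 and 5. Macrophage pools lay close to each other, with ranges of 0.28 in Fos and 0.07 in Ier3. These genes were measured in the same libraries, so a shared order of pools is a description of those libraries.

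**Figure D4:**
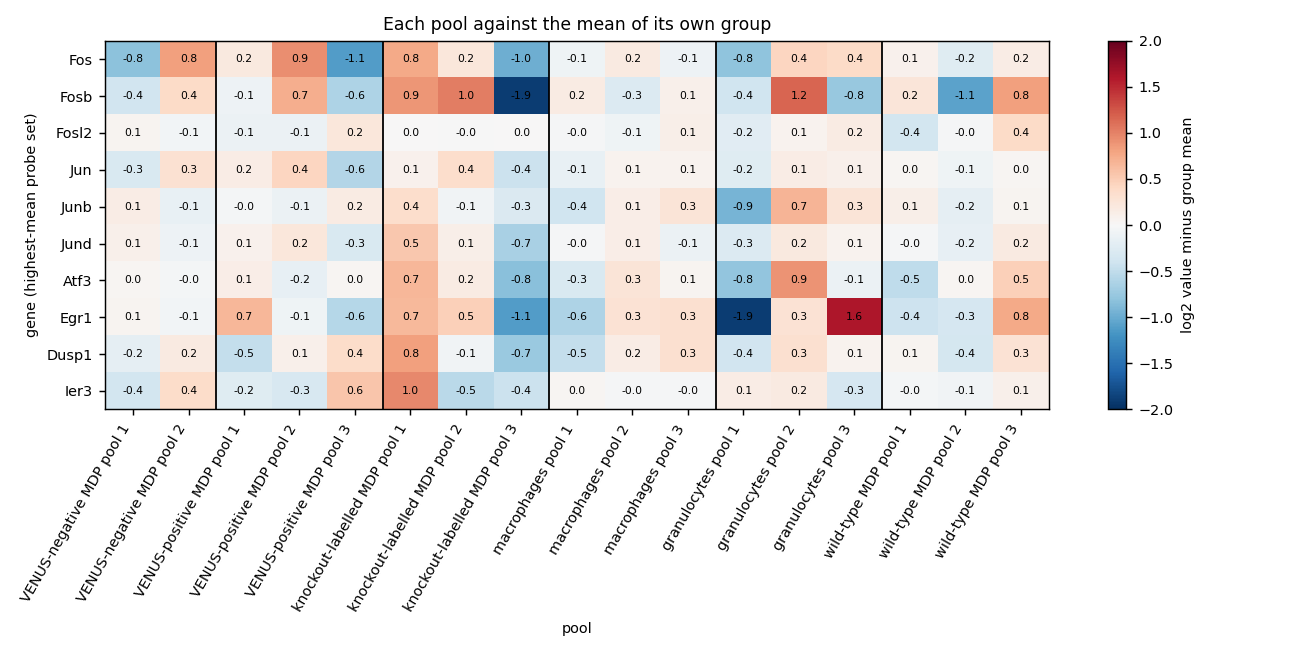
Log2 value of each pool minus the mean of its own group (colour and number), for the highest-mean probe set of each of the 10 genes (vertical axis) in each of the 17 pools (horizontal axis). Knockout-labelled pool 3 and granulocyte pool 1 are mostly below their group means, wild-type MDP pool 3 mostly above.

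Other immediate early genes, of which 20 of 22 listed were measured, had 0 called in knockout-labelled against wild-type MDPs and 0 in VENUS-negative against VENUS-positive MDPs. Of all probe sets 0.575% were called in the first comparison and 4.44% in the second. In granulocytes against wild-type MDPs 16 of the 20 rose and 1 fell, where 20.4% of all probe sets rose and 17.9% fell, with a median difference of 2.04 against 0.11 over all probe sets. Klf2, a zinc-finger factor, rose by 3.46, while Myc, a driver of proliferation, fell by 5.17. Socs3, an inhibitor of cytokine signalling, averaged 7.74 in granulocytes and 2.80 in wild-type MDPs, and Ier5 6.91 in granulocytes and 3.55 in wild-type MDPs, where both wild-type levels are under the array medians. In macrophages against wild-type MDPs 9 rose and 1 fell, where 9.61% of all probe sets rose and 9.28% fell. Nr4a1, an orphan nuclear receptor of monocytes and macrophages, averaged 9.09 in macrophages and 4.18 in wild-type MDPs, under the array medians, and Myc fell by 3.91. In macrophages against granulocytes 2 rose and 10 fell, where 13.6% of all probe sets rose and 11.3% fell. Socs3 fell by 2.96 and Nr4a1 rose by 2.91, while Ptgs2, the inducible cyclooxygenase, averaged 2.53 in macrophages, at background, and 4.79 in granulocytes.

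Other AP-1 subunits and bZIP partners (12 of 13 listed) had 3 higher and 1 lower in granulocytes against wild-type MDPs, shares close to or under the 20.4% and 17.9% of all probe sets. Jdp2, a repressor that pairs with JUN proteins, rose by 2.34, and Maff, a small MAF protein, averaged 6.14 in granulocytes and 4.39 in wild-type MDPs. In macrophages against wild-type MDPs 3 rose and 1 fell, where 9.61% of all probe sets rose and 9.28% fell. Batf, a partner of JUN in lymphoid and myeloid cells, rose by 1.51 and Batf3, which dendritic cells need, by 1.28. Between the spleen populations, 3 of the 12 were called higher in macrophages than in granulocytes and 2 lower. Of all probe sets 13.6% were called higher there and 11.3% lower. Among 19 measured MAP kinase and serum response factor genes, 1 was called in VENUS-negative against VENUS-positive MDPs. That count is near the share of all probe sets called there, 4.44%. It was Dusp16, another MAP kinase phosphatase, at 5.95 in VENUS-negative and 4.13 in VENUS-positive MDPs (limma adjusted p = 0.00967). Dusp16 averaged 7.16 in granulocytes and 3.40 in wild-type MDPs, the latter under the array medians.

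Outside the 10 genes, the transcripts whose levels ran most like those of Fos over the 17 arrays were Mrgpra4, Lemd1, Best1, Rhob and Nfkbid, with Pearson correlations of 0.826, 0.812, 0.808, 0.802 and 0.798 among 17087 genes. The group means of Mrgpra4 and Lemd1 ran only from 4.11 to 4.67 and from 3.49 to 3.96, near the array medians, whereas Rhob, a small GTPase gene, ran from 7.99 to 10.52. Among the members, the correlation with Fos was 0.805 for Egr1, 0.738 for Jund and 0.728 for Dusp1, down to 0.343 for Jun. Groups and libraries are shared by all these values, and the correlations describe them with no test.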

How the data were processed

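Total RNA of sorted cells was labelled as biotin-cRNA and hybridised to Affymetrix perfect-match arrays, per the labels' protocols. The values are the authors' deposited log2 expression values, made with Affymetrix Expression Console and RMA, per the submitters' processing notes (the sources used here give neither versions nor the set of arrays that was normalized as one). No value was filtered or rescaled, and all 17 columns were mapped to samples. RMA equalises the distribution of the arrays, so a shift shared by all genes would not be seen. Precision is limited by the number of arrays.

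Gene symbols came from the platform annotation, and 28898 probe sets had 1 symbol, 551 several and 15588 none. A gene is spoken of by its probe set with the highest mean, with its other probe sets beside it. Context lists were counted by gene on that probe set, while the shares beside them are over all 45037 probe sets. With 1 probe set for each of 17097 genes, 3768 were called higher and 3952 lower in granulocytes against wild-type MDPs. For macrophages against granulocytes these were 3142 and 2195. The rule for named genes was every probe set of the 10 members, up to 4 called genes with the largest differences of each context list, and the 5 genes most like Fos. The members and lists were chosen with earlier results of these data known. No coordinates of probe sets are given.

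Groups were compared in R 4.3.3 by two-sided limma tests (version 3.58.1, lmFit then eBayes), in 1 fit with a mean per group over 17 arrays (11 residual and 2.98 prior degrees of freedom). p-values were adjusted by the Benjamini-Hochberg method over 45037 probe sets and called under 0.05. Alternatives were median centring, repeated quantile normalization, only brighter probe sets, 1 probe set per gene, a trended and robust prior, only the 2 groups compared, a replicate block, and each pool left out. The step was first tested on simulated data with known changes.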

Additional observations from a re-analysis of the deposited data

Results flagged for a closer look

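The brighter Fosl2 probe set, 1437247_PM_at, differed in opposite directions in the progenitor comparisons: by -1.79 in VENUS-negative against VENUS-positive MDPs and by 1.42 in knockout-labelled against wild-type MDPs. The difference between these differences was tested in the same limma fit, in a contrast added after the data were seen. It was -3.22 ± 0.26 (SE, log2 units; Benjamini-Hochberg adjusted p = 7.75e-06), where 2.35% of all probe sets were called in that contrast. It was called in 11 of 11 fits that left out 1 MDP array, with adjusted p between 3.03e-06 and 8.58e-05. The dimmer probe set, 1422931_PM_at, gave -0.33 (adjusted p = 0.864), so the result rests on 1 of the 2 probe sets of the gene. Both parts of the contrast had already been called with opposite signs, so its call is no separate support. The contrast was not fitted with the replicate block, where its parts had limma adjusted p of 0.250 (knockout-labelled) and 0.176 (VENUS). Of the other 11 member probe sets 0 were called in this contrast, and Dusp1 gave 1.43 (adjusted p = 0.268, unadjusted p = 0.0176).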

How the results depend on the processing

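Of 355 alternative values of called member differences, 313 kept their direction and call, 42 kept the direction and lost the call and 0 changed direction. Of 622 for differences that were not called, 585 stayed so, 6 were called and 31 changed sign, all without a call.

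Called members in knockout-labelled against wild-type MDPs went to 0 with only the 2 groups and to 0 with the replicate block. In VENUS-negative against VENUS-positive MDPs they were 1 with only the 2 groups and 0 with the block, and 1 to 3 without 1 pool. In macrophages against wild-type MDPs the block gave 8, and the share of all probe sets called in that fit is not given here. Fits without 1 pool otherwise called 1 member in the knockout-labelled comparison, 0 in VENUS-positive against wild-type MDPs, 7 to 9 in macrophages against granulocytes, 4 in macrophages and 8 to 10 in granulocytes against wild-type MDPs; where 1 VENUS-negative pool was left, it was taken to vary like the other groups. Of all 45037 probe sets, fits without 1 pool called 177 to 278 in the knockout-labelled comparison and 8262 to 12264 in macrophages against granulocytes. Against wild-type MDPs they called 6522 to 7455 in macrophages and 14154 to 17694 in granulocytes. Over all probe sets the calls were 46 (knockout-labelled) and 536 (VENUS) with only the 2 groups, and 2 and 0 with the block. The trended, robust prior gave 2 in VENUS-positive against wild-type MDPs, and fits without 1 pool 0 to 9. With 1 probe set per gene, which tests fewer features, the calls were 155 (knockout-labelled), 1003 (VENUS), 5337 (macrophages against granulocytes), 4038 (macrophages) and 7720 (granulocytes against wild-type MDPs).

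A check of the pool numbers did not show pairing: over all probe sets, deviations of same-numbered pools correlated between -0.0749 and 0.115. The labels do not say whether equal numbers mark a shared day or batch. A link limited to few genes need not show in such correlations. The replicate block left the Fosl2 difference in knockout-labelled MDPs at 1.42 (adjusted p = 0.250) and turned the uncalled VENUS differences of Fos (-0.14), Jun 1448694_PM_at (-0.11) and Junb (0.031). Quantile normalization turned that of Jun 1448694_PM_at in granulocytes against wild-type MDPs (0.10), and median centring that of Jund 1440265_PM_at in macrophages against granulocytes (0.012). Without 1 pool, uncalled differences that changed sign ran as follows. Against wild-type MDPs, the knockout-labelled differences were -0.22 to 0.56 for Dusp1, -0.0011 to 0.87 for Fos, -0.75 to 0.74 for Fosb, -0.20 to 0.12 for Junb, and -0.46 to 0.11 and -0.21 to 0.38 for Jund 1440265_PM_at and 1449117_PM_at. The VENUS differences were -0.41 to 1.24 for Fos, -0.11 to 0.92 for Jun 1448694_PM_at and -0.19 to 0.10 for Junb. In macrophages against granulocytes they were -0.65 to 0.19 for Atf3 and -0.23 to 0.12 for Jund 1440265_PM_at, which ran from -0.029 to 0.49 in macrophages and from -0.17 to 0.34 in VENUS-positive MDPs against wild-type MDPs. Jun 1448694_PM_at ran from -0.16 to 0.032 in granulocytes against wild-type MDPs. The cause of these changes was not tested. Junb, several Atf3 and Fosb values and 2 Ier3 values lie under the array median, where small differences are not resolved.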

Other observations

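Heat shock genes, another early response of stressed cells, were called in the opposite direction to the AP-1 genes between the spleen populations. Of 9 measured, 6 rose and 0 fell in macrophages against granulocytes, where 13.6% of all probe sets rose and 11.3% fell. Their median difference was 0.81, and those that rose included Hsph1, a co-chaperone (3.63), and Hspe1, a mitochondrial chaperonin (2.84). In granulocytes against wild-type MDPs 1 rose and 6 fell, where 20.4% of all probe sets rose and 17.9% fell. The median there was -0.97, against 0.11 over all probe sets. The mean level of the heat shock genes per pool was 8.01 to 8.23 in granulocytes, against 9.53 to 9.90 in wild-type MDPs. In VENUS-negative pools it was 9.99 and 10.01, against 9.87 to 10.05 in VENUS-positive pools. Limma called 0 of the 9 there and 4.44% of all probe sets.

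Inducible chemokine and cytokine genes, of which 9 of 9 were measured, had 5 higher and 1 lower in granulocytes against wild-type MDPs. Of all probe sets 20.4% were higher and 17.9% lower there. Il1b, which encodes interleukin-1 beta, averaged 12.58 in granulocytes and 4.70 in wild-type MDPs, a rise of 7.88, and it rose by 3.88 in macrophages. Cxcl2, a neutrophil attractant, averaged 5.57 in granulocytes and 2.66 in wild-type MDPs, at background, while Ccl3 fell by 1.48. In macrophages against granulocytes 4 fell and 0 rose, where 11.3% of all probe sets fell and 13.6% rose. Il1b averaged 8.58 in macrophages and 12.58 in granulocytes, and Ccl5 fell by 3.88. In knockout-labelled against wild-type MDPs and in VENUS-negative against VENUS-positive MDPs 0 of the 9 were called. Of all probe sets 0.575% were called in the first comparison and 4.44% in the second.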
